A study of Mus musculus with 8 samples.

Results

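Expression of 9 genes that encode intermediate filament proteins of neurons and glia, Gfap, Vim, Nes, Synm, Nefl, Nefm, Nefh, Ina and Prph, was compared between the hippocampus of BTBR mice and that of B6 controls. Members were all non-control probes carrying one of these gene names on the array, which gave 16 of 41174 probes and 9 of 27373 gene names. BTBR is an inbred strain used as a model of autism spectrum disorder, labeled BTBR T+ Itpr3tf/J, and B6 is the C57BL/6J inbred strain, labeled wild type. Whole hippocampi of 4 male BTBR mice and 4 male B6 mice, all 5 months old and given no drug, were each read on 1 single-color Agilent array. The label for strain background names C57BL/6J for the BTBR mice too, whereas their title, source and genotype labels name BTBR, and they were grouped as BTBR. The mice are 2 inbred strains and not littermates, so that any difference between them cannot be tied to a single locus.

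Intermediate filaments are rope-like polymers that give a cell its tensile strength, and the proteins that build them differ by cell type. In the brain, astrocytes build theirs from glial fibrillary acidic protein and vimentin, with nestin in neural stem cells and synemin as a partner that cannot polymerize alone. Axons are filled with neurofilaments, which are heteropolymers of the light, medium and heavy neurofilament proteins with alpha-internexin, or with peripherin in peripheral and some central neurons, and their density sets the caliber of large myelinated axons.

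Levels are normalized log2 intensities. A strain difference is the BTBR mean minus the B6 mean on that scale, with its standard error (SE). Of the 16 probes, 15 gave a signal well above background in all 8 mice and entered the limma fit over 27982 probes. No member probe was saturated and no other probe on the array had the same 60 bases. Probes differ in brightness for reasons other than RNA amount, so levels of different probes are not read as relative amounts of RNA. Levels are compared between mice, and within-array differences between probes of the same gene are compared between the strains. Whether the BTBR and B6 sequences differ under a probe, which could change its binding, was not tested. Strain differences and calls are therefore those of probe signal. In RNA from whole tissue, fewer cells of a type and less RNA per cell cannot be told apart. The labels and methods do not give the number of litters. The limma p-values rest on the spread between these 8 mice, moderated over all tested probes.

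BTBR mice had lower Gfap and Nefl and higher Nefh, and 1 of the Synm probes was higher as well. At a limma adjusted p under 0.05, 3 of the 15 tested probes were up-regulated in BTBR hippocampus and 5 were down-regulated. The array-wide shares were 3.31% of probes up-regulated and 4.3% down-regulated, 7.61% in either direction, as compared to 53.3% of the member probes. The B6 and BTBR arrays did not overlap for 8 member probes (53.3%), and for 14.2% of all probes. The other 7 tested probes, all those of Vim, Nes, Nefm, Ina and Prph and the second one of Synm, were not called. The median difference over the 15 probes was 0.11, as compared to 0.011 over all tested probes, since members moved in opposite directions. Counted by gene as the median over its probes, Synm and Nefh were up-regulated and Gfap and Nefl were down-regulated, as were 3.32% (up) and 4.45% (down) of all genes by that rule. Taken by its brightest probe, Synm was not called. The spread between mice of one strain had a median of 0.178 over the member probes and 0.132 over all probes.

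**Figure D1:**
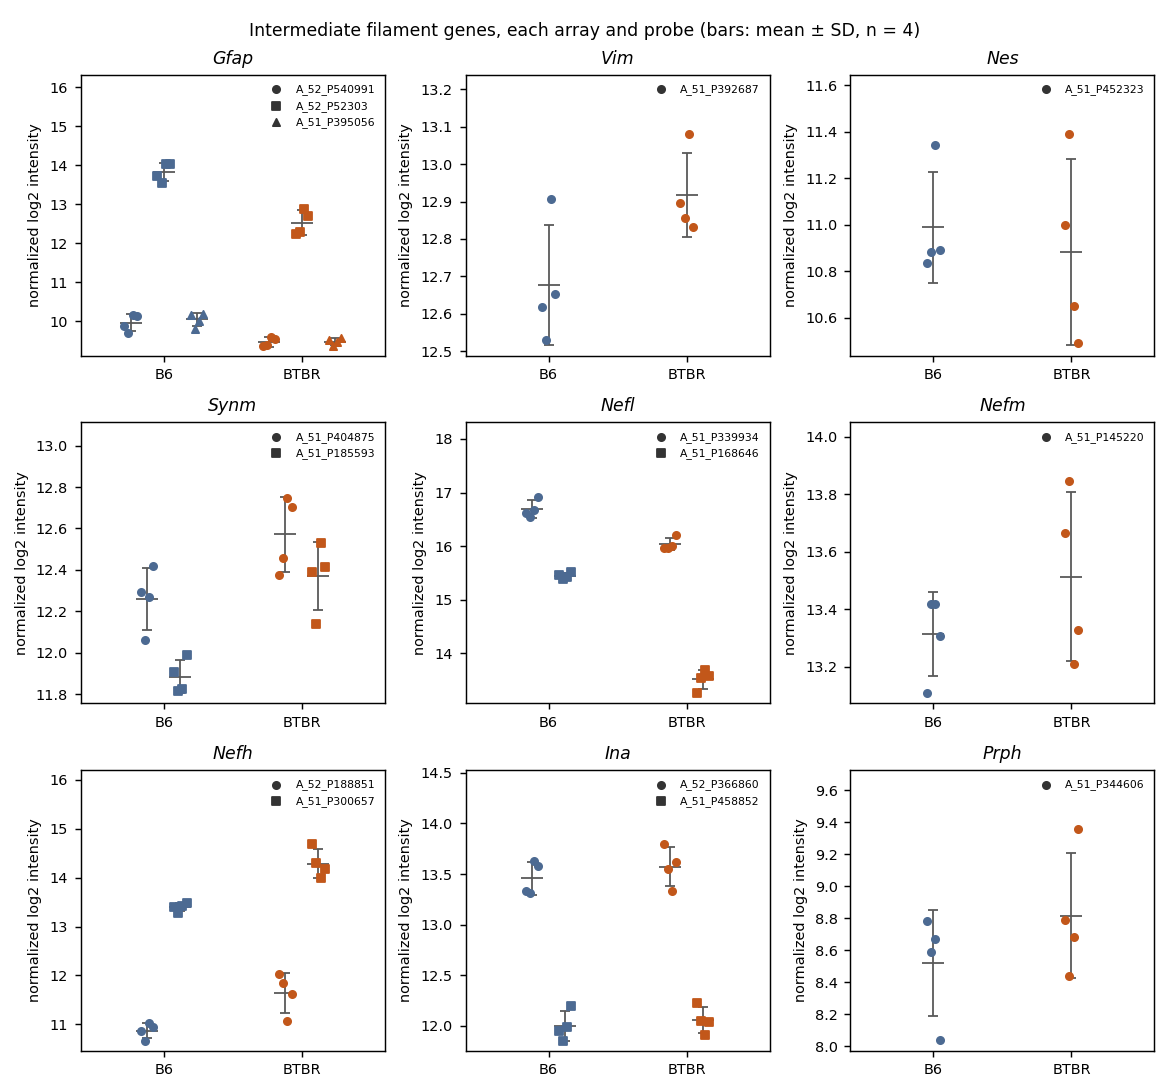
Normalized log2 intensity (vertical axis) of each tested probe on each B6 array (blue) and BTBR array (orange), with 1 panel per gene and 1 symbol per probe. Horizontal marks and bars are the mean ± SD of 4 mice. The strains are apart for every Gfap, Nefl and Nefh probe and for Synm probe A_51_P185593, and overlap for the remaining ones.

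The arrays sat on 2 slides of 4, with replicates 1 and 2 of both strains on slide 1 and replicates 3 and 4 on slide 2. Between 56.8% and 71.9% of probes were well above background on an array. Genes of other brain regions and of choroid plexus moved with particular mice. The summed log2 level of 14 thalamus markers was 17.32 in BTBR replicate 1 and 15.02 in BTBR replicate 2, against 14.18 to 14.53 in B6 and 14.17 and 14.32 in the other BTBR mice. The sum of 9 striatum markers was 18.51 in BTBR replicate 2, 16.36 in BTBR replicate 1 and 17.26 in B6 replicate 2, whereas the other 5 mice lay between 14.54 and 15.36. The sum of 5 markers of CA1 pyramidal neurons was 16.17 and 16.42 in BTBR replicates 1 and 2, below the 16.78 to 17.35 of the other 6 mice. Wfs1, the only 1 of the 5 with a higher mean in BTBR, measured 14.48 and 14.94 in those 2 mice and 14.20 to 14.52 in B6. The sum of 8 choroid plexus markers was 17.80 and 17.69 in BTBR replicates 1 and 2 and 15.64 to 17.08 in the other 6, and their median difference of 0.368 was 0.0174 without BTBR replicate 1. The sum of 7 ependymal markers was 15.27 in BTBR replicate 1 and 13.98 to 14.79 in the other 7. Limma called 0 genes of these 5 lists between the strains. In the order given, 0, 0, 2, 1 and 1 had an unadjusted p under 0.05. The rank product, the methods' test, called 4, 2, 2, 1 and 0 at an estimated share of false predictions (pfp) of 0.05 or less. Over all 27982 probes it called 1098, of which 456 were higher in BTBR. The array-wide share at an unadjusted p under 0.05 is not given here for the strain difference. The 2 CA1 genes called moved in opposite directions, Wfs1 by 0.71 and Fibcd1 by -0.95. The 3 mice that stand apart in these sums are all on slide 1, so the strain difference of each tested member probe is also given within slide. Slide 2 holds none of these mice. Within slide 1, 2 member probes were up-regulated and 4 down-regulated (3.65% and 5.01% of all probes). Within slide 2, 1 was up-regulated and 4 were down-regulated (1.44% and 2.27% of all probes).

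**Figure D2:**
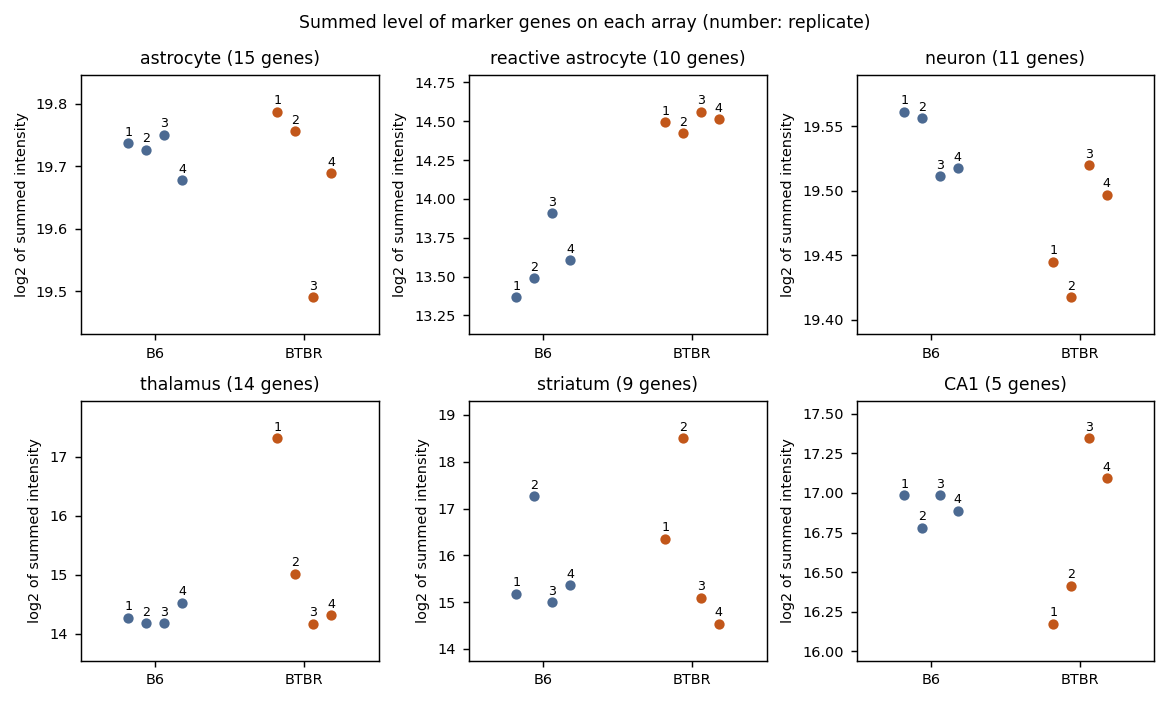
Log2 of the summed intensity (vertical axis) of 6 marker gene lists on each array, B6 in blue and BTBR in orange, with the replicate number beside each point. BTBR replicate 1 stands at 17.32 for thalamus markers and BTBR replicate 2 at 18.51 for striatum markers, while reactive astrocyte markers run from 13.37 to 13.91 in B6 and from 14.43 to 14.56 in BTBR. Without Serpina3n the latter ranges are 13.08 to 13.72 and 13.55 to 13.91 and overlap.

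Gfap, the filament protein by which astrocytes are most often recognized, was down-regulated in BTBR hippocampus at all 3 of its probes by limma, by 1.40-fold to 2.47-fold. The rank product called A_52_P52303 and not A_52_P540991 (pfp = 0.15) or A_51_P395056 (pfp = 0.0771). The probes lie on chromosome 11, on the minus strand of mm9, and the sequences of 2 of them are shown because the size of the strain difference depended on which probe was read. Sequences are printed 5′ to 3′ as the files give them, here as bases 1 to 30 of 60. Capitals mark a run of 12 bases that occurs at positions 13 and 49 of the same probe.
Gfap A_52_P52303: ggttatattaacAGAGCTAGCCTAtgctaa
Gfap A_51_P395056: tgctctatgcatatacgtaatgtcacctat
Probe A_52_P540991, designed on transcript variant 2, matches a span of 2450 bases of the genome with its 60 bases, so that it crosses at least 1 splice junction. Probe A_52_P52303, designed on transcript variant 1, matches chr11:102751813-102751872, which lies inside that span. Probe A_51_P395056 matches chr11:102748916-102748976, further 3′. The capital run AGAGCTAGCCTA occurs in no other probe, and 141 of the 41174 probes (0.342%) hold some repeated run of 12 bases.

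At A_52_P52303, Gfap measured 13.73, 13.54, 14.02 and 14.03 in B6 replicates 1 to 4 and 12.24, 12.28, 12.88 and 12.70 in BTBR replicates 1 to 4. Every BTBR mouse was below every B6 mouse, and within each strain the mice of slide 1 were the lower ones. The mean was 13.83 ± 0.24 in B6 and 12.53 ± 0.31 in BTBR (SD, n = 4 each), a difference of -1.30 (SE 0.17, limma adjusted p = 0.00143), or 2.47-fold lower in BTBR. Within slides the difference was -1.37 and -1.23.

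At the splice junction probe A_52_P540991, Gfap measured 9.87, 9.69, 10.16 and 10.13 in B6 replicates 1 to 4 and 9.36, 9.38, 9.60 and 9.54 in BTBR replicates 1 to 4. The strains did not overlap here either, and the gap between the lowest B6 mouse and the highest BTBR mouse was small. Gfap fell by 0.49 at this probe (SE 0.12, limma adjusted p = 0.0355), or 1.40-fold, and by 0.41 and 0.57 within slides 1 and 2. This call was lost without any 1 of B6 replicates 1, 3 and 4 or BTBR replicates 1, 2 and 4, at limma adjusted p between 0.0601 and 0.104, with differences between -0.52 and -0.42.

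At A_51_P395056, which is spotted 10 times on each array, Gfap measured 10.17, 9.81, 10.002 and 10.20 in B6 replicates 1 to 4 and 9.51, 9.37, 9.46 and 9.56 in BTBR replicates 1 to 4. All BTBR values were below all B6 values. The fall was 0.57 (SE 0.10, limma adjusted p = 0.00603), or 1.48-fold, and it was 0.55 on slide 1 and 0.59 on slide 2, where limma adjusted p was 0.0564 and 0.0793. The SD among the 10 spots of one array had a median of 0.0823, as compared to an SD between mice of 0.18 in B6 and 0.082 in BTBR.

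The probe inside the span of the splice junction thus showed the largest Gfap difference. Within an array, the log2 value of A_52_P540991 minus that of A_52_P52303 was -3.87 ± 0.022 in B6 and -3.05 ± 0.19 in BTBR (SD, n = 4 each), a change of 0.81. The strains did not overlap in that within-array difference, with an exact permutation p of 0.0286, the smallest that 4 mice against 4 allow. For A_51_P395056 against A_52_P52303 the change was 0.73, again without overlap (exact permutation p = 0.0286). Over the 6 pairs of probes that could be set against each other in these genes, 3 had that smallest p. Benjamini-Hochberg adjustment gives 0.0571 for each of them, so none passes 0.05 after adjustment. No exact p can be lower with 4 mice against 4, so 3 pairs at that p could not pass. The adjusted values therefore do not decide whether these probes differ.

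**Figure D3:**
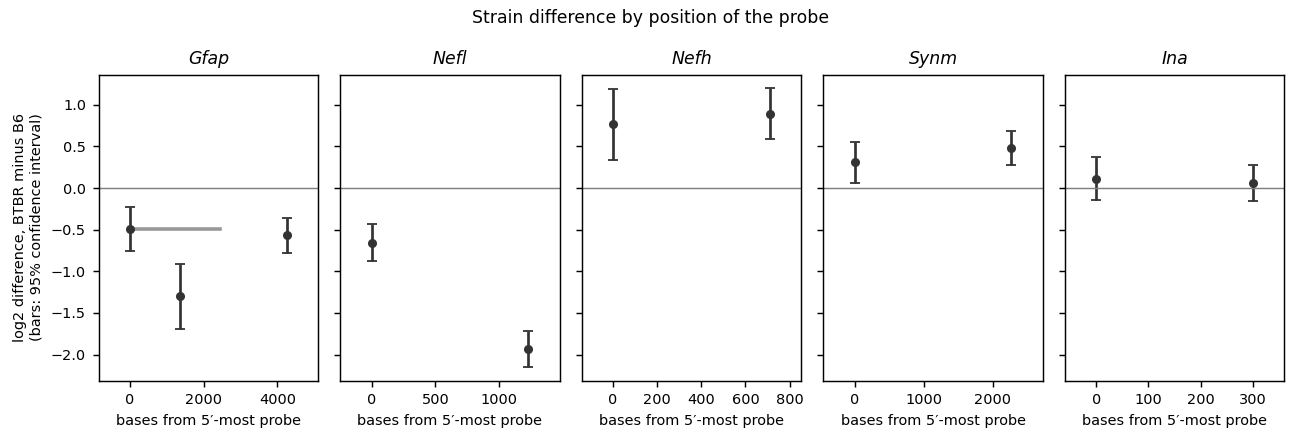
Strain difference in log2 units (vertical axis, BTBR minus B6, bars are 95% confidence intervals) against distance in bases from the most 5′ probe of the gene (horizontal axis) for the 5 genes with more than 1 tested probe. The gray line is the 2450-base span of the Gfap splice junction probe, and the probe inside it reads -1.30 where the others read -0.49 and -0.57. The 3′ Nefl probe reads -1.93 and the other -0.65.

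Over all genes taken by their brightest probe, 3.49% were up-regulated and 4.33% down-regulated. Of 15 astrocyte markers tested, 0 were down-regulated and 1 was up-regulated, Acsbg1, an acyl-CoA synthetase (0.41, SE 0.087, limma adjusted p = 0.0217). An unadjusted p under 0.05 was reached by 3 of them in either direction, and the rank product called 0. Their median difference was -0.0033, and their summed level was 19.68 to 19.75 in B6 and 19.49 to 19.79 in BTBR. Differences above 0 were found for 7 of them, and the differences ran from -0.26 for Aqp4, the water channel of astrocyte endfeet, to the 0.41 of Acsbg1. Among 14 genes that mark reactive astrocytes, 10 were tested, 1 was up-regulated and 1 was down-regulated. Serpina3n, a secreted protease inhibitor, rose by 2.24 (SE 0.21, limma adjusted p = 2.24e-04), and Osmr, the receptor for oncostatin M, fell by 0.52 (SE 0.10, limma adjusted p = 0.0135). The rank product called 2, Serpina3n and Hspb1, and not Osmr. The median difference over the 10 genes was 0.116. Their summed level was 13.37 to 13.91 in B6 and 14.43 to 14.56 in BTBR, and the strains overlapped once Serpina3n was left out, a choice made after seeing the data, with 13.08 to 13.72 and 13.55 to 13.91.

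Vim, which copolymerizes with glial fibrillary acidic protein and is also made by endothelial and meningeal cells, was not called. Probe A_51_P392687 (chr2:13504232-13504291) measured 12.62, 12.53, 12.91 and 12.65 in B6 replicates 1 to 4 and 12.90, 12.86, 13.08 and 12.83 in BTBR replicates 1 to 4. The BTBR mice were the higher ones, except that B6 replicate 3 exceeded 3 of them. The difference was 0.24, with a 95% confidence interval from 0.023 to 0.46 (limma adjusted p = 0.215, exact permutation p = 0.114), and 0.30 and 0.18 within slides. The second probe, A_52_P287532, lies 5466 bases 5′ of the first and gave a signal well above background in none of the mice, with 7.43 to 7.95 in B6 and 7.59 to 7.73 in BTBR, so it was not tested. The sums of 10 endothelial markers ran from 15.65 to 15.90 in B6 and from 15.68 to 16.13 in BTBR, and those of 10 meningeal fibroblast markers from 14.21 to 15.71 and from 14.81 to 15.70, with 0 genes called by limma in either list. At an unadjusted p under 0.05 there were 1 and 2, and the rank product called 0 and 2.

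Nes, the filament protein of neural stem and progenitor cells and of some endothelial cells, was not called, and its strain difference had opposite signs on the 2 slides. Its probe A_51_P452323 (chr3:87784308-87784367), spotted 10 times per array, measured 10.84, 10.88, 11.34 and 10.89 in B6 replicates 1 to 4 and 10.997, 11.39, 10.65 and 10.49 in BTBR replicates 1 to 4. The BTBR mice of slide 1 were above the B6 mice of that slide and those of slide 2 were below. The difference was -0.11, with a 95% confidence interval from -0.56 to 0.34 (limma adjusted p = 0.84), and 0.33 on slide 1 and -0.55 on slide 2 (limma adjusted p = 0.435 for the interaction of strain and slide). The median SD among spots of one array was 0.176, below the SD of 0.24 between B6 mice and 0.40 between BTBR mice. Of 10 progenitor markers tested, 1 was up-regulated and 1 down-regulated (3.49% and 4.33% of all genes by their brightest probe), 5 had an unadjusted p under 0.05, and the rank product called 1, Hopx (-0.80, limma adjusted p = 0.11). Sox11, a transcription factor of immature neurons, was up-regulated (0.53, SE 0.085, limma adjusted p = 0.00516) and Fabp7, a fatty acid binding protein of radial glia, was down-regulated (-0.48, SE 0.11, limma adjusted p = 0.0254).

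Synm encodes synemin, which links filaments of vimentin and related proteins to other structures of the cell. Both probes lie on chromosome 7 and were designed on transcript variant 1. The called one is shown by its first 30 of 60 bases.
Synm A_51_P185593: agttcctcctgagatcagaacttttcccta
This probe (chr7:74875365-74875424, minus strand) measured 11.91, 11.82, 11.83 and 11.99 in B6 replicates 1 to 4 and 12.39, 12.14, 12.53 and 12.42 in BTBR replicates 1 to 4. All BTBR mice were above all B6 mice. The difference was 0.48 (SE 0.090, limma adjusted p = 0.011), or 1.40-fold higher in BTBR, with 0.40 on slide 1 (limma adjusted p = 0.0788) and 0.56 on slide 2 (limma adjusted p = 0.0475). The rank product did not call it, at a pfp of 0.103. The other probe, A_51_P404875, lies 2269 bases 5′ and measured 12.29, 12.06, 12.27 and 12.42 in B6 replicates 1 to 4 and 12.38, 12.46, 12.75 and 12.70 in BTBR replicates 1 to 4. There the strains overlapped, since B6 replicate 4 was above BTBR replicate 1. Its difference of 0.31, with a 95% confidence interval from 0.063 to 0.56, was not called (limma adjusted p = 0.153), and it was called with the slide as a block (limma adjusted p = 0.0462). It was 0.24 on slide 1 and 0.38 on slide 2. The change between the 2 probes was 0.17 (exact permutation p = 0.0857, adjusted p = 0.129).

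Nefl, the light neurofilament protein that forms the core of the neurofilament, was down-regulated at both probes. They are shown by their first 30 of 60 bases because they gave falls of different size on the plus strand of chromosome 14.
Nefl A_51_P339934: gactttcaatgtgtgctatgaatttcctcc
Nefl A_51_P168646: actgaagtgatctgcaattgaagtctcttt
Probe A_51_P339934 matches chr14:68705638-68705698. It measured 16.62, 16.54, 16.67 and 16.92 in B6 replicates 1 to 4 and 15.97, 15.96, 16.003 and 16.20 in BTBR replicates 1 to 4. Every BTBR mouse was lower, and replicate 4 was the highest of each strain. The mean was 16.69 ± 0.16 in B6 and 16.03 ± 0.11 in BTBR (SD, n = 4 each), a difference of -0.65 (SE 0.096, limma adjusted p = 0.00281), or 1.57-fold lower in BTBR.

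Probe A_51_P168646 (chr14:68706866-68706925) lies 1228 bases 3′ of the first. It measured 15.47, 15.38, 15.43 and 15.52 in B6 replicates 1 to 4 and 13.26, 13.54, 13.69 and 13.57 in BTBR replicates 1 to 4. The B6 mice lay close together and all BTBR mice were far below them. The mean was 15.45 ± 0.058 in B6 and 13.52 ± 0.18 in BTBR (SD, n = 4 each), a difference of -1.93 (SE 0.094, limma adjusted p = 2.83e-06), or 3.81-fold lower in BTBR. Within slides 1 and 2 the difference was -2.03 and -1.84 here, and -0.62 and -0.69 at the first probe. Within an array, the log2 value of the 3′ probe minus that of the other was -1.24 ± 0.12 in B6 and -2.52 ± 0.18 in BTBR (SD, n = 4 each), a change of -1.28 (exact permutation p = 0.0286, adjusted p = 0.0571 over the 6 pairs). The strains did not overlap in that difference, and this exact p is the smallest that 4 mice against 4 allow. Both Nefl probes were called under all 19 limma alternatives that used both slides, with differences at the 3′ probe between -1.99 and -1.85, and both were called within each slide.

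**Figure D4:**
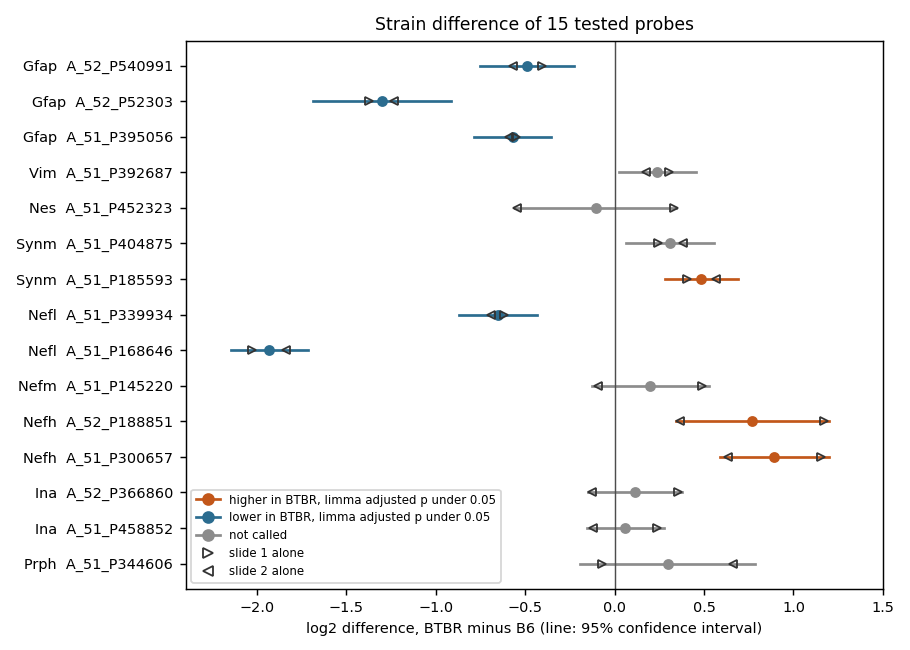
Strain difference in log2 units (horizontal axis, BTBR minus B6) of the 15 tested probes, with the 95% confidence interval as a line, and the difference within slide 1 and slide 2 as open triangles. Called probes are colored. The triangles of Gfap and Nefl lie close together, whereas those of Nes, Nefm, Nefh and Ina lie apart with slide 1 on the right, and those of Prph with slide 2 on the right.

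Nefm, the medium neurofilament protein, whose long phosphorylated tail projects from the filament, was not called. It lies on chromosome 14 as Nefl does, on the minus strand, and its probe is shown whole as the only one for this subunit.
Nefm A_51_P145220: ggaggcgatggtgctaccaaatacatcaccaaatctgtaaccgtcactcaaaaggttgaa
This probe (chr14:68738193-68738252), spotted 10 times per array, measured 13.11, 13.42, 13.42 and 13.31 in B6 replicates 1 to 4 and 13.67, 13.84, 13.21 and 13.33 in BTBR replicates 1 to 4. BTBR replicates 1 and 2 were above all other mice, and BTBR replicates 3 and 4 lay within the B6 range. The difference was 0.20, with a 95% confidence interval from -0.13 to 0.53 (limma adjusted p = 0.541), and it was 0.49 on slide 1 and -0.09 on slide 2.

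Nefh encodes the heavy neurofilament protein, which is most abundant in large myelinated projection axons and whose tail carries many phosphorylation sites. It was up-regulated at both probes, which lie 711 bases apart on the minus strand of chromosome 11. The first is shown whole and the second by its first 30 bases.
Nefh A_52_P188851: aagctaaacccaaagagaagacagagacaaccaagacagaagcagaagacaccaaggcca
Nefh A_51_P300657: agcagttagaaacgcattatgcttgaaatg
Probe A_51_P300657 (chr11:4838918-4838977) measured 13.39, 13.28, 13.43 and 13.48 in B6 replicates 1 to 4 and 14.68, 14.30, 13.99 and 14.18 in BTBR replicates 1 to 4. All BTBR mice were above all B6 mice, with BTBR replicate 1 the highest. The mean was 13.40 ± 0.084 in B6 and 14.29 ± 0.29 in BTBR (SD, n = 4 each), a difference of 0.89 (SE 0.13, limma adjusted p = 0.00323), or 1.86-fold higher in BTBR.

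Probe A_52_P188851 (chr11:4839629-4839688) measured 10.87, 10.66, 11.03 and 10.94 in B6 replicates 1 to 4 and 12.03, 11.84, 11.07 and 11.63 in BTBR replicates 1 to 4. BTBR replicate 1 was again the highest, and BTBR replicate 3 was just above the highest B6 mouse. The difference was 0.77 (SE 0.19, limma adjusted p = 0.0412), or 1.70-fold higher in BTBR. This call was lost without any 1 of the arrays other than BTBR replicate 3, with differences from 0.64 to 0.82 and limma adjusted p from 0.0765 to 0.119. The change between the 2 Nefh probes was -0.12 (exact permutation p = 0.343, adjusted p = 0.411).

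The Nefh difference was larger on the slide whose BTBR mice had high thalamus and striatum markers. At A_51_P300657 it was 1.15 on slide 1 (limma adjusted p = 0.00427) and 0.63 on slide 2 (limma adjusted p = 0.0618), and at A_52_P188851 it was 1.17 (limma adjusted p = 0.0113) and 0.37 (limma adjusted p = 0.505). The interaction of strain and slide had a limma adjusted p of 0.489 and 0.466 for these probes, and limma called 0 probes on the array for it (2780, or 9.93%, at an unadjusted p under 0.05). Without BTBR replicate 1, the mouse with the highest thalamus sum, the difference was 0.76 at A_51_P300657 (limma adjusted p = 0.00194) and 0.64 at A_52_P188851 (limma adjusted p = 0.0933). At A_51_P300657 both BTBR mice of slide 2 were above every B6 mouse, and their thalamus sums of 14.17 and 14.32 lay 1 just below and 1 within the B6 range. The part of tissue from other regions in the larger slide 1 values was not tested.

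Ina encodes alpha-internexin, a neurofilament protein that appears early in developing neurons. Its probe A_52_P366860 (chr19:47099050-47099109) ran from 13.31 to 13.63 in B6 and from 13.33 to 13.79 in BTBR, and A_51_P458852, which lies 300 bases 3′, ran from 11.85 to 12.20 and from 11.91 to 12.23. The strains overlapped at both. The differences were 0.11, with a 95% confidence interval from -0.15 to 0.38, and 0.06, from -0.16 to 0.27 (limma adjusted p = 0.683 and 0.811). They were 0.35 and 0.24 on slide 1 and -0.13 and -0.12 on slide 2.

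Prph encodes peripherin, found mainly in peripheral neurons and in central neurons with peripheral axons. Its probe A_51_P344606 (chr15:98887297-98887356) ran from 8.04 to 8.78 in B6 and from 8.44 to 9.36 in BTBR and was well above background on all 8 arrays. The difference of 0.30, with a 95% confidence interval from -0.20 to 0.79, was not called (limma adjusted p = 0.543), and it was -0.072 on slide 1 and 0.66 on slide 2. Of 11 general neuron markers, 0 were called by limma or the rank product and 3 had an unadjusted p under 0.05. They had a median difference of 0.0103, and sums of 19.51 to 19.56 in B6 and 19.42 to 19.52 in BTBR. The median was -0.0017 without BTBR replicate 1.

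Genes related to these filaments or acting on them were taken as 7 lists, to be read against the 3.49% of all 18399 genes up-regulated and the 4.33% down-regulated by their brightest probe. Of 11 other intermediate filament and lamin genes tested, such as Des, Krt8, Krt18, Lmna and Lmnb1, 0 were called by limma, with a median difference of 0.0293. The 5 cytolinkers tested, Plec, Dst, Macf1, Ppl and Evpl, and the 8 subunits of the motors that carry neurofilaments, such as Kif5a and Dync1h1, also gave 0 calls, with medians of 0.0029 and 0.078. The rank product called 0 in these 3 lists, and an unadjusted p under 0.05 was reached only by Dst (0.22, SE 0.098) and the dynactin subunit Dctn1 (0.19, SE 0.077). Of 7 chaperones and ubiquitin ligases of filaments, Bag3, a co-chaperone of small heat shock proteins, was up-regulated (0.57, SE 0.12, limma adjusted p = 0.0193), whereas the rank product called 1 gene, Hspb1, and not Bag3. Of 15 kinases and phosphatases, Gsk3a, which phosphorylates neurofilament tails among many substrates, was down-regulated (-0.60, SE 0.082, limma adjusted p = 0.00182), and the rank product called 0.

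The microtubule and axon partners of the neurofilaments held the largest difference among these lists. Of 15 tested genes, 2 were up-regulated and 0 down-regulated by limma. Map1b, a microtubule-associated protein of growing axons, measured 13.39, 13.09, 13.32 and 13.32 in B6 replicates 1 to 4 and 15.72, 15.22, 15.56 and 15.61 in BTBR replicates 1 to 4. The strains were far apart and neither slide stood out. The difference was 2.25 (SE 0.12, limma adjusted p = 3.73e-06). Map1a, its relative in mature neurons, rose by 0.51 (SE 0.079, limma adjusted p = 0.00351). The rank product called Map1b and not Map1a. Of 13 transcriptional regulators of glial filament genes, with Osmr among them as an upstream receptor, Osmr alone was called. Differences above 0 were found for 2 of the 13, with a median of -0.107 (0.0106 over all genes), an unadjusted p under 0.05 for 3, and 0 called by the rank product. Hes5, a target of Notch signaling, had a difference of -0.64 (SE 0.17, limma adjusted p = 0.0517). The summed level was 16.84, 16.73, 16.86 and 16.83 in B6 replicates 1 to 4 and 16.60, 16.39, 16.71 and 16.73 in BTBR replicates 1 to 4. The lowest mice of each strain, B6 replicate 2 and BTBR replicates 1 and 2, are those that stood apart for markers of other regions, and the part of such tissue in these sums was not tested.

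The genes whose levels over the 8 arrays were most like Gfap at A_52_P52303 were Hcfc2, AY423051, Fgfr1op2, Gdpd1 and Faim, with Pearson r from 0.984 to 0.992. For Nefl at A_51_P339934 they were Trim17, Hk2, Ifi203, Mfap2 and Gstm6, with r from 0.985 to 0.993. All 10 had lower means in BTBR, with differences from -1.47 to -0.52. For Vim they were Ddx6, Mrps11, Ift172, Kifc3 and Ptpn1, with r from 0.938 to 0.968. Once each strain's mean was removed, r lay between 0.86 and 0.95 for Gfap, between 0.88 and 0.96 for Nefl and between 0.88 and 0.97 for Vim. These are the highest values among 18399 genes over 8 arrays and are given as a description.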

How the data were processed

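Intensity values were deposited by the authors as read by Agilent Feature Extraction (the file headers give version 10.7.3.1, the submitters' processing notes 9.1), unscaled between arrays, with flags for spots well above background, outlying or saturated. RNA was extracted by column (QIAGEN), passed a cut on integrity, and was labeled with Cy3. The authors' matrix of log2 values, made with Agi4x44PreProcess defaults and quantile normalization, served as an alternative, and its signal column and offset are not given in the sources used here. Probe positions, gene names and sequences come from the array files (mm9), and exon and UTR annotation of that build was not used here. The sequence of 1 Gfap probe is not reported here.

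Local background (median) was subtracted from mean intensity with a minimum of 0.5, 50 was added, log2 values were quantile normalized, and the median was taken over replicate spots. Left out were control probes, 154 probes flagged as outliers, and any probe that fell short of well above background in 75% of the arrays of both strains. This kept 27982 probes. Limma 3.58.1 (R 4.3.3) fitted strain alone, two-sided, with Benjamini-Hochberg adjustment over all tested probes. Values within a slide came from limma with strain, slide and their interaction, the spread pooled over both slides. Single probes and within-array differences of probe pairs were compared by exact two-sided permutation over the 8 arrays. On data simulated with independent noise, limma recovered most probes moved by a single set amount, larger than every member difference here. Recovery of smaller differences was not simulated. Python 3.11.15, NumPy 2.4.6, pandas 2.3.3 and matplotlib 3.10.9 were also used.

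Members, lists and tests were chosen with earlier results of these data known. Named were the 9 members, at most the 3 called genes of smallest p in each list, and the 5 genes most like Gfap, Nefl and Vim; list examples that were not called and the region sums were named after their values were seen. A list's summed level adds the intensities of its tested genes. The alternatives were processed signal, normexp, the deposited matrix, median centring, other filters, flags kept, other limma options, blocks, rank product (100 permutations, pfp of 0.05, the methods' test), arrays left out and, added after seeing the data, each slide alone. The permutations of the rank product shuffle probes within each array, so its pfp does not measure the spread between mice.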

Additional observations from a re-analysis of the deposited data

Results flagged for a closer look

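Nes in B6 replicate 3 measured 11.34, far from the other 3 B6 mice, of which the nearest was at 10.89, a gap of 0.895 of the range of the group by Dixon's test. About 1 in 20 groups of 4 passes this test by chance, and 1 of the 30 groups tested here, 15 probes in each strain, did so. Without this mouse the Nes difference was 0.013 in place of -0.11 (limma adjusted p = 0.986).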

How the results depend on the processing

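The falls of Gfap at A_52_P52303 and A_51_P395056, both falls of Nefl and the rise of Nefh at A_51_P300657 kept their call under all 19 limma alternatives that used both slides. An adjusted p under 0.01 left 1 probe up-regulated, and the rank product left 3 down-regulated. It lost Gfap at A_52_P540991 and A_51_P395056 and Synm at A_51_P185593, with pfp of 0.15, 0.0771 and 0.103. Within slide 2 alone, 1 probe was up-regulated and the median difference was -0.12. Without each array in turn, 2 to 3 probes were up-regulated, 4 to 5 down-regulated, and the median was 0.04 to 0.18. Without each array in turn Nes ran from -0.28 to 0.024. It turned to 0.013 without B6 replicate 3, to 0.024 without BTBR replicate 4 and to 0.33 within slide 1. Prph was -0.072 within slide 1, and within slide 2 Nefm was -0.094 and Ina -0.13 and -0.12. The Gfap pair with A_51_P395056 had an exact permutation p of 0.0571 without any 1 B6 mouse. Correlations of same-numbered deviations were -0.14, 0.51, -0.10 and 0.39, of mixed sign, and do not settle whether replicate numbers pair the mice. With a replicate block, limma called 1650 probes in place of 2129, Nefh at A_52_P188851 (0.77) had an adjusted p of 0.0978, and the other called members stayed called. That call was also lost with median centring (0.73, adjusted p = 0.0775) and without the filter on dim probes (adjusted p = 0.0549), and Gfap at A_52_P540991 was lost with processed signals (-0.62, adjusted p = 0.0519). The causes of these changes were not tested. With 4 mice per strain, small differences such as those of Vim and Ina could not be resolved, and the dim Vim probe gave no value.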

Other observations

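Some marker genes of other cell types were called. Of 11 microglia markers tested, 4 were down-regulated in BTBR and 0 up-regulated by limma, against 4.33% and 3.49% of all genes, and they include the complement genes C1qb (-1.01, SE 0.11, adjusted p = 6.02e-04) and C1qc (-0.57, SE 0.091, adjusted p = 0.00467) and the receptor Trem2 (-0.60, SE 0.085, adjusted p = 0.00234). The complement gene C1qa of the same list was not called (-0.047, limma adjusted p = 0.837), and the median difference over the 11 was -0.19. By rank product only C1qb was called, and 5 had an unadjusted p under 0.05. Their summed level was 16.24 to 16.33 in B6 and 15.89 to 16.27 in BTBR, which overlap. Markers of the hippocampal neuron types gave 1 call each for CA3, where Socs2 fell by 0.48 (limma adjusted p = 0.0339), and for dentate granule cells, where Trpc6 fell by 0.95 (limma adjusted p = 0.0458). The rank product called 1 in CA3, Cpne4, and 3 in dentate granule cells, Trpc6, C1ql2 and Dsp. The medians of these 2 lists were -0.58 over 4 genes and -0.61 over 9 genes, and -0.51 and -0.58 without BTBR replicate 1. Of 11 interneuron markers and 11 oligodendrocyte markers, 0 were called by limma, 1 of each had an unadjusted p under 0.05, and the rank product called 0 and 1. The oligodendrocyte sum was 19.22 in BTBR replicate 2 and 18.30 to 18.99 in the other 7 mice.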
